A study of Vitis vinifera with 24 samples.

Results

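Of the 29971 loci measured in grapevine (Vitis vinifera) anthers and in callus grown from them, 66 were present in every anther library and close to 0 in every callus library. They were chosen by value: a locus had to have 5 FPKM or more in each of the 6 anther libraries and under 0.5 FPKM in each of the 18 callus libraries. FPKM is a level scaled to transcript length and to library size, so levels of different loci can be set side by side. The contrast of anthers with callus therefore defines these loci, and it is described below without a test.

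The study followed somatic embryogenesis, in which cultured somatic cells give rise to embryos, in the cultivars Cabernet Sauvignon (CS), labelled poorly competent, and Sangiovese (SG), labelled highly competent. Each cultivar gave anthers excised from immature flowers, undifferentiated callus at day 40 of culture (40D), and callus classed under a stereomicroscope at month 4 as non-embryogenic (NEC) or embryogenic (EC). Callus was induced from anthers in the dark with 2,4-D, a synthetic auxin, and BAP, a cytokinin. The EC and NEC calli were moved after 3 months to a medium with the auxins NOA and IAA, BAP and activated charcoal. All callus groups thus share an auxin and cytokinin treatment that the excised anthers had not received. Each of the 8 groups had 3 libraries, which the labels call biological replicates.

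An anther is the pollen-bearing part of the stamen. Its pollen sacs are lined by the tapetum, a secretory layer that feeds the developing microspores and supplies much of the pollen wall, and wall layers and a connective with a vascular strand surround them. In flowering plants many genes are expressed in the tapetum or in pollen and in few other places, among them genes for sporopollenin synthesis, lipid transfer and cell wall remodelling. The 66 loci are known here by identifier alone: 0 of the 29971 identifiers matched the RefSeq gene table, and neither a name nor a role is given to any of them. For the same reason the labelled tissues were not checked against named markers. The libraries come from whole tissue, so fewer cells of a type and less RNA per cell cannot be told apart.

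The FPKM columns summed to between 729402 and 938765. The number of reads is unknown. Judged by the most frequent ratio of values under 0.15 FPKM, 1 fragment was worth between 0.664 and 1.13 times its value in CS anther replicate 1, a rough guide to relative depth. Anther replicate 3 lay between replicates 1 and 2 for more loci than in 40D or NEC libraries, a pattern given with its values below because the comparison of cultivars rests on it.

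The 66 loci made up 0.22% of all loci and 0.557% of the 11849 loci at 5 FPKM or more in all 6 anther libraries. Their mean level over the 6 anther libraries ran from 6.91 to 633 FPKM, with a median of 33.8, against a median of 27.2 FPKM for the 11849 loci. Of the 66, 9 loci had a mean of 100 FPKM or more, 14 lay from 50 to 100, 35 from 10 to 50, and 8 under 10. By mean anther level 1 of the 66 was among the 100 highest loci and 6 were among the 1000 highest.

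**Figure D1:**
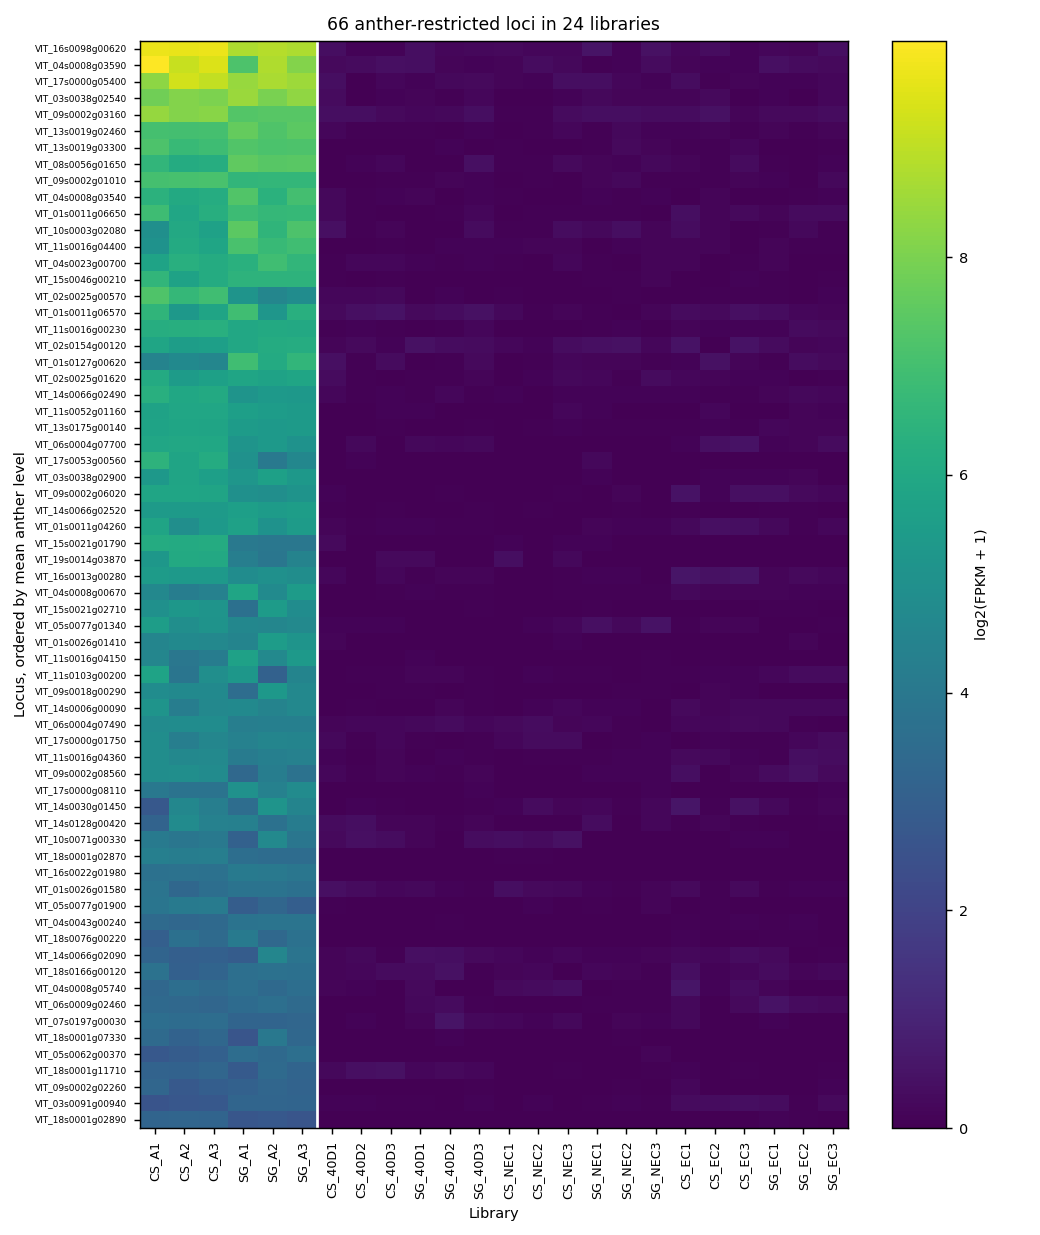
Heat map of log2(FPKM + 1) for the 66 loci (rows, ordered by mean anther level) in the 24 libraries (columns), with a white line between anthers and callus. Anther columns differ between loci and between cultivars, while no callus value reaches 0.5 FPKM.

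Summed over the 66 loci, the level was 5360, 4918 and 5067 FPKM in CS anther replicates 1, 2 and 3, and 4249, 4198 and 4204 FPKM in the SG replicates. The cultivars did not overlap, and the CS mean of 5115 ± 225 FPKM was 1.21 times the SG mean of 4217 ± 27.7 (SD, n = 3). In anthers the 66 loci held between 0.552% and 0.7% of the summed FPKM of a library. The 10 highest loci supplied 62.1% of the sum in CS and 54.5% in SG. Without them the sums were 1940 ± 116 FPKM in CS and 1921 ± 104 in SG (SD, n = 3), and the libraries of the cultivars overlapped.

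VIT_16s0098g00620 had the highest mean of the 66. Its levels were 821, 814 and 834 FPKM in CS anthers, and 429, 470 and 430 in SG anthers. Over the 18 callus libraries it ran from 0.0661 to 0.457 FPKM, with a median of 0.137. It was thus above 0 in all 18 callus libraries, and in anthers every CS library was well above every SG library.

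VIT_04s0008g03590 came next and was far less even. It had 1014, 568 and 696 FPKM in CS anthers and 144, 442 and 277 in SG anthers, and from 0.0363 to 0.329 FPKM in callus. Its lowest and highest anther libraries differed 7.04-fold. VIT_17s0000g05400 had 311, 639 and 530 FPKM in CS anthers and 346, 416 and 363 in SG anthers, with CS replicate 1 below all SG libraries and the other CS libraries above them.

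VIT_03s0038g02540 had 223, 277 and 258 FPKM in CS and 359, 252 and 323 in SG, where SG replicate 2 fell within the CS range. VIT_09s0002g03160 had 342, 282 and 295 FPKM in CS and 157, 166 and 169 in SG, and its callus median of 0.238 FPKM was the highest of the 66. No other locus of the 66 averaged more than 152 FPKM in anthers.

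The rest of the 10 highest lay at 97.5 to 152 FPKM on average. VIT_13s0019g02460 had 130, 127 and 132 FPKM in CS and 198, 150 and 176 in SG. VIT_13s0019g03300 had 146, 106 and 119 FPKM in CS and 156, 141 and 146 in SG, so its cultivars overlapped. VIT_08s0056g01650 had 94.9, 68.8 and 74.2 FPKM in CS and 187, 167 and 173 in SG. Every SG library of that locus was above every CS library. VIT_09s0002g01010 had 131, 135 and 136 FPKM in CS and 94.3, 97.6 and 97.5 in SG. VIT_04s0008g03540 had 83.7, 65.4 and 71.6 FPKM in CS and 156, 82.2 and 126 in SG, with SG replicate 2 just under CS replicate 1.

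Values in callus were at the lower end of what these libraries record. Of the 1188 values, 66 loci in 18 libraries, 382 (32.2%) were listed at 0, 870 (73.2%) were under 0.1 FPKM, and 81 were at 0.25 or more. The median of the values above 0 was 0.0781 FPKM and the smallest was 0.00912. One locus, VIT_16s0022g01980, was listed at 0 in all 18 callus libraries, with 12.1, 12.8 and 12.3 FPKM in CS anthers and 16.3, 15.6 and 14.1 in SG anthers. At the other end 7 loci were above 0 in all 18 callus libraries, and the median locus was above 0 in 14.

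For the 65 loci with a value above 0 in callus, the lowest anther library exceeded the highest callus library by at least 11.7-fold, with a median of 105-fold. The rule itself requires over 10-fold. Anther level and callus level were only loosely ordered alike across the 66 loci, with a Spearman rho of 0.24, a description over loci that share the same libraries.

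The residual signal in callus, which the rule caps, is given here by group as a description. In EC the 66 loci summed to 7.67, 5.43 and 6.69 FPKM in CS and 5.7, 4.88 and 5.71 in SG. In NEC the sums were 3.21, 3.33 and 5.08 FPKM in CS and 4.63, 3.79 and 4.36 in SG. The lowest EC library was above the highest NEC library by a narrow margin, 5.43 against 5.08 FPKM in CS and 4.88 against 4.63 in SG. Such sums were not made for other loci under 0.5 FPKM in all callus. Callus at day 40 lay at 5.81, 4.22 and 4.77 FPKM in CS and 4.46, 4.47 and 5 in SG. Of the 65 loci above 0 in some callus library, 27 had their highest callus mean in an EC group, 19 in a 40D group and 19 in an NEC group. This split was not counted over other loci, so no leaning of the 66 to a callus type is read from it. Since the rule caps each of these values at 0.5 FPKM, they carry no test.

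**Figure D2:**
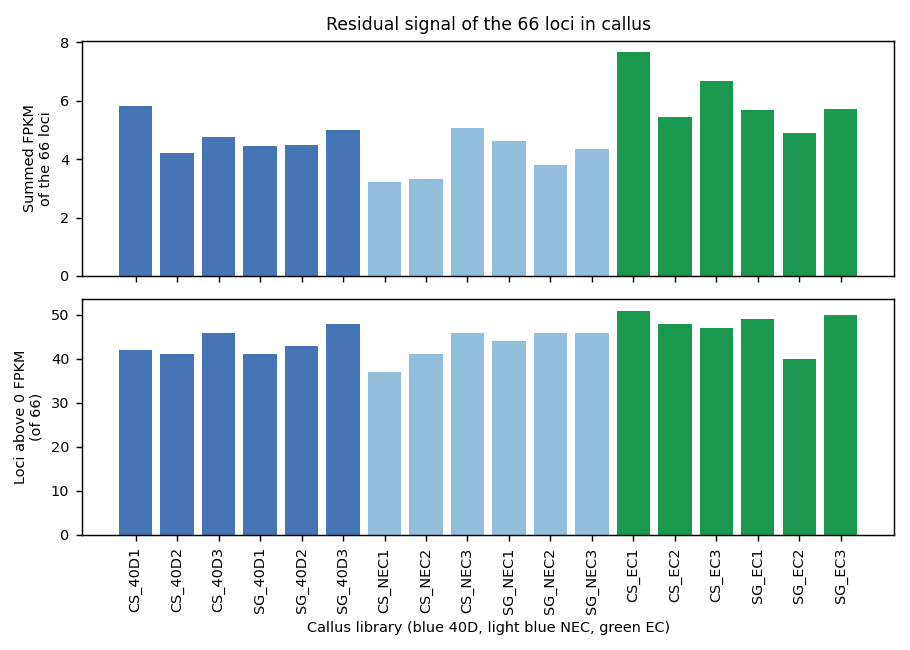
Summed FPKM of the 66 loci (top) and the number of them above 0 FPKM (bottom) in each of the 18 callus libraries, coloured by callus type. The sums run from 3.21 to 7.67 FPKM and the numbers above 0 from 37 to 51 of 66.

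The thresholds cut through a continuous range. Just inside the anther threshold were VIT_03s0091g00940, whose lowest anther library had 5.11 FPKM, VIT_18s0001g07330 with 5.15 and VIT_18s0001g02890 with 5.29. Just outside it were VIT_12s0034g01180, whose lowest anther library had 4.95 FPKM, VIT_19s0085g00280 with 4.88 and VIT_14s0066g02500 with 4.83. The latter lies between a pair of the 66 loci described below.

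Just inside the callus threshold were VIT_16s0013g00280, VIT_14s0030g01450 and VIT_04s0008g05740, whose highest callus values of 0.5, 0.489 and 0.479 FPKM all came from CS EC replicate 1. The first of these was 0.499548 FPKM before rounding. Just outside were VIT_01s0011g06390, VIT_18s0001g04400 and VIT_09s0002g03630, with highest callus values of 0.508, 0.508 and 0.515 FPKM. Each of these 3 also had its highest callus value in an EC library, and VIT_01s0011g06390 had a mean of 217 FPKM in anthers, more than all but 5 of the 66.

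**Figure D3:**
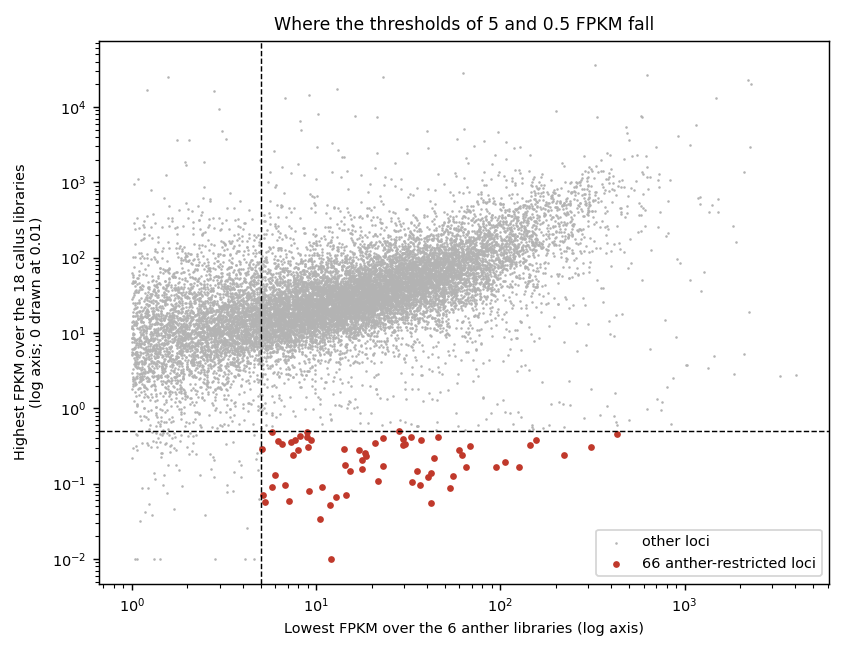
Lowest anther FPKM against highest callus FPKM of each locus with at least 1 FPKM in all 6 anther libraries, on log axes, with dashed lines at 5 and 0.5 FPKM. The 66 loci (red) form the lower right corner, and other loci (grey) continue across both lines.

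The same rule turned to the other tissues found few loci. With 5 FPKM or more in the 6 libraries of a tissue and under 0.5 in the 18 others, 2 loci were restricted to 40D callus, 1 to EC and 0 to NEC. The 40D loci, VIT_07s0005g05890 and VIT_07s0005g06010, had means of 11 and 7.84 FPKM in CS and 15.2 and 18.3 in SG, and the EC locus, VIT_12s0028g03030, had means of 11.1 FPKM in CS and 8.37 in SG. These 3 were named after their values were seen.

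Letting one callus tissue take any value admitted 21 more loci for 40D, 11 for NEC and 40 for EC. Most of them crossed the limit in some libraries only. Loci at 0.5 FPKM or more in all 6 libraries of the freed tissue numbered 3 for 40D, 0 for NEC and 10 for EC, and 0 reached 5 FPKM throughout any of them. Among the 10 shared with EC, VIT_03s0038g02330 was highest there, at 4.49 to 8.97 FPKM, with a mean of 19.3 in anthers.

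Callus under 0.5 FPKM throughout was common, and anther signal among such loci was not. Of all loci 7011 met the callus limit, and 6227 of these were also under 0.5 FPKM in all 6 anther libraries. The 6227 include 3407 loci listed at 0 in all 24 libraries, which were not detected in any tissue here. In CS anthers 90 of the 7011 had 5 FPKM or more in all 3 libraries, and in SG anthers 83 did, with the 66 in both. The 24 found in CS alone and the 17 found in SG alone mostly had a signal in the other cultivar too: 3 and 3 of them were under 0.5 FPKM in all anthers of the other cultivar.

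The loci with signal in CS anthers alone were VIT_00s2077g00010, at 12.5 to 17.8 FPKM, VIT_05s0020g02250, at 11.9 to 18 FPKM, and VIT_14s0006g03290, at 5.38 to 7.86 FPKM. In SG anthers alone they were VIT_16s0022g01020, at 6.61 to 52.4 FPKM, VIT_03s0038g03600, at 7.24 to 11.7 FPKM, and VIT_00s0218g00220, at 7.01 to 8.54 FPKM. These 6 were named after their values were seen. Because the rule asks for 5 FPKM in both cultivars, such loci could not be among the 66, and this limits how far the cultivars can differ in what follows.

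The comparison of SG with CS anthers is the contrast between labelled groups that the rule did not use. Of the 66 loci 36 passed the test: 13 were higher and 23 lower in SG, and 30 did not pass. The test was limma on log2(FPKM + 1) over the 6 anther libraries and 17855 loci, with Benjamini-Hochberg adjustment over all of them and a threshold of 0.05. Over all loci tested 34.4% passed, 14.5% as higher and 19.9% as lower, against 54.5%, 19.7% and 34.8% of the 66. Among the 11849 loci at 5 FPKM or more in all anthers, which meet the same floor as the 66, 31.7% passed. The 66 had a median difference of -0.01 on the log2 scale and all loci tested one of -0.03. Their median absolute difference was 0.47, against 0.23 for the 11849 loci.

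The number of calls changed with the libraries fitted, among the 66 and among all loci. With replicates 1 and 2 of each cultivar alone, a choice made after the data were seen, 1 of the 66 passed and 166 of 16773 loci (0.990%) did. With replicates 1 and 3 alone, 33 of the 66 passed, beside 5477 of 16789 loci (32.6%). With replicates 2 and 3 alone, 32 of the 66 passed, beside 3825 of 16765 loci (22.8%). Leaving out CS replicate 3 gave 23 calls among the 66 in place of 36, beside 2774 of 17372 loci in place of 6142 of 17855. Leaving out SG replicate 3 also gave 23, beside 2913 of 17365 loci (16.8%), and leaving out CS replicate 2 gave 26, beside 3518 of 17379 (20.2%). The higher calls fell from 13 to 7 without CS replicate 2, to 6 without CS replicate 3 and to 5 without SG replicate 3. Over all loci the higher calls fell too, from 2597 to 1601, 1281 and 997 in the same fits. The lower calls fell from 23 to 19, 17 and 18, and over all loci from 3545 to 1917, 1493 and 1916. Of the 36 calls, 22 were made in every one of the 6 fits that left out a library, 5 of them higher and 17 lower in SG. The matching share over all loci was not counted, so this is not a trait of the 66. Each of these 6 fits still held replicate 3 of at least 1 cultivar. Passing in all 6 therefore cannot show whether a call depends on replicate 3 being independent, a point taken up below.

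Lower in SG by the widest margin was VIT_15s0021g01790. It had 70.7, 68.5 and 70.1 FPKM in CS anthers and 15.6, 14.6 and 14.4 in SG anthers, a 4.69-fold difference of means. On the log2 scale SG minus CS was -2.16 (SE 0.06, adjusted p = 1.2e-05 by limma). This was the 1 locus of the 66 that passed with replicates 1 and 2 alone, at -2.13 (adjusted p = 0.034 by limma).

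VIT_02s0025g00570 had 150, 101 and 119 FPKM in CS and 34.6, 23 and 28.1 in SG, with a log2 difference of -2.07 (SE 0.19). VIT_17s0053g00560 had 87.3, 56 and 68.8 FPKM in CS and 32.4, 15.3 and 23.8 in SG. VIT_19s0014g03870 had 38.4, 65.9 and 63.4 FPKM in CS and 18.4, 14.3 and 21.2 in SG. The log2 differences of these last 2 were -1.57 and -1.56. In all 3 loci the lowest CS library was above the highest SG library, and all 3 passed whichever single library was left out.

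VIT_04s0008g03590, described above, differed by -1.50 (log2, SE 0.43, adjusted p = 0.04 by limma). Its call was lost without CS replicate 1 (-1.27), CS replicate 2 (-1.69), CS replicate 3 (-1.54) or SG replicate 3 (-1.54). VIT_09s0002g08560 had 28.9, 29.5 and 27.5 FPKM in CS and 9.44, 17.8 and 12.6 in SG. VIT_05s0077g01900 had 13.7, 16.3 and 16.7 FPKM in CS and 6.74, 8.8 and 7.01 in SG. VIT_09s0002g06020 had 57.7, 57.3 and 56.1 FPKM in CS and 31.4, 29.5 and 34 in SG. The 3 loci after the first passed in all 6 fits that left out a library, with differences of -1.10, -0.96 and -0.83.

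The highest locus of the 66, VIT_16s0098g00620, was lower in SG by 0.89 on the log2 scale, and so was VIT_09s0002g03160. Their SEs were 0.08 and 0.09, and limma gave adjusted p = 0.0007 and 0.001. VIT_09s0002g01010 fell by 0.47. Each of these 3 passed whichever library was left out. Of the 10 highest loci 4 were lower in SG, 2 were higher and 4 did not pass.

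Higher in SG by the widest margin was VIT_01s0127g00620, with 20.8, 25.9 and 22.9 FPKM in CS anthers and 119, 68.5 and 93.2 in SG anthers. Its means differed 4.03-fold, and SG minus CS was 1.94 on the log2 scale (SE 0.20, adjusted p = 0.0012 by limma). VIT_08s0056g01650, whose means differed 2.22-fold, had a log2 difference of 1.15 (SE 0.13). Both passed whichever library was left out, as did VIT_05s0062g00370 and VIT_03s0091g00940. VIT_05s0062g00370 had 5.73, 6.5 and 7.39 FPKM in CS and 10.8, 9.79 and 11.4 in SG. VIT_03s0091g00940 had 5.11, 5.56 and 5.81 FPKM in CS and 8.6, 8.68 and 8.27 in SG. For both the SG libraries lay wholly above the CS libraries, at levels close to the floor of the rule.

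The other loci called in this direction and named here lost their call in some fits that left out a library. VIT_10s0003g02080 had 30.3, 64.9 and 51.6 FPKM in CS and 176, 92.0 and 147 in SG, a log2 difference of 1.49 that was not called without CS replicate 3 (1.57) or SG replicate 3 (1.43). VIT_11s0016g04400 had 33.1, 68.1 and 57 FPKM in CS and 139, 106 and 122 in SG, a difference of 1.25 that was not called without SG replicate 3 (1.25). In both loci the lowest SG library exceeded the highest CS library.

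VIT_11s0016g04150 had 23.3, 14.5 and 17.5 FPKM in CS and 51.8, 25.3 and 40.4 in SG. VIT_04s0008g00670 had 24.5, 17.7 and 19.9 FPKM in CS and 58.3, 26.6 and 43.9 in SG. SG replicate 2 was close to CS replicate 1 in both. The first had a log2 difference of 1.02, and its call was lost without CS replicate 1 (1.19), CS replicate 2 (0.86), CS replicate 3 (0.99), SG replicate 1 (0.79) or SG replicate 3 (0.97). The second had a difference of 0.96, and its call was lost without the same libraries, at 1.08, 0.86, 0.94, 0.71 and 0.91 in that order.

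VIT_17s0000g08110 had 14.8, 12.8 and 13.1 FPKM in CS and 32.5, 19.7 and 27.5 in SG, a log2 difference of 0.89 that was not called without CS replicate 2 (0.86), CS replicate 3 (0.87) or SG replicate 3 (0.86). VIT_02s0154g00120 had 57, 45.7 and 48.2 FPKM in CS and 62.7, 69 and 71.8 in SG, a difference of 0.43 that was not called without the same 3 libraries, at 0.36, 0.40 and 0.39. VIT_13s0019g02460 had a difference of 0.42, and its call was lost without CS replicate 1 (0.42), CS replicate 2 (0.41), CS replicate 3 (0.43) or SG replicate 3 (0.41). The values of these 3 loci moved little while the calls were lost. VIT_16s0022g01980, the locus at 0 throughout callus, was higher in SG by 0.29 (log2, SE 0.08, adjusted p = 0.037 by limma), and this call was lost in each of the 6 fits that left out a library.

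All 36 loci that passed had CS and SG libraries that did not overlap. In all 39 of the 66 (59.1%) did not overlap, against 50.8% of all loci tested. With a log2 difference of at least 1 as well, 5 were higher and 6 lower in SG, where 4.33% and 4.55% of all loci tested were.

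**Figure D4:**
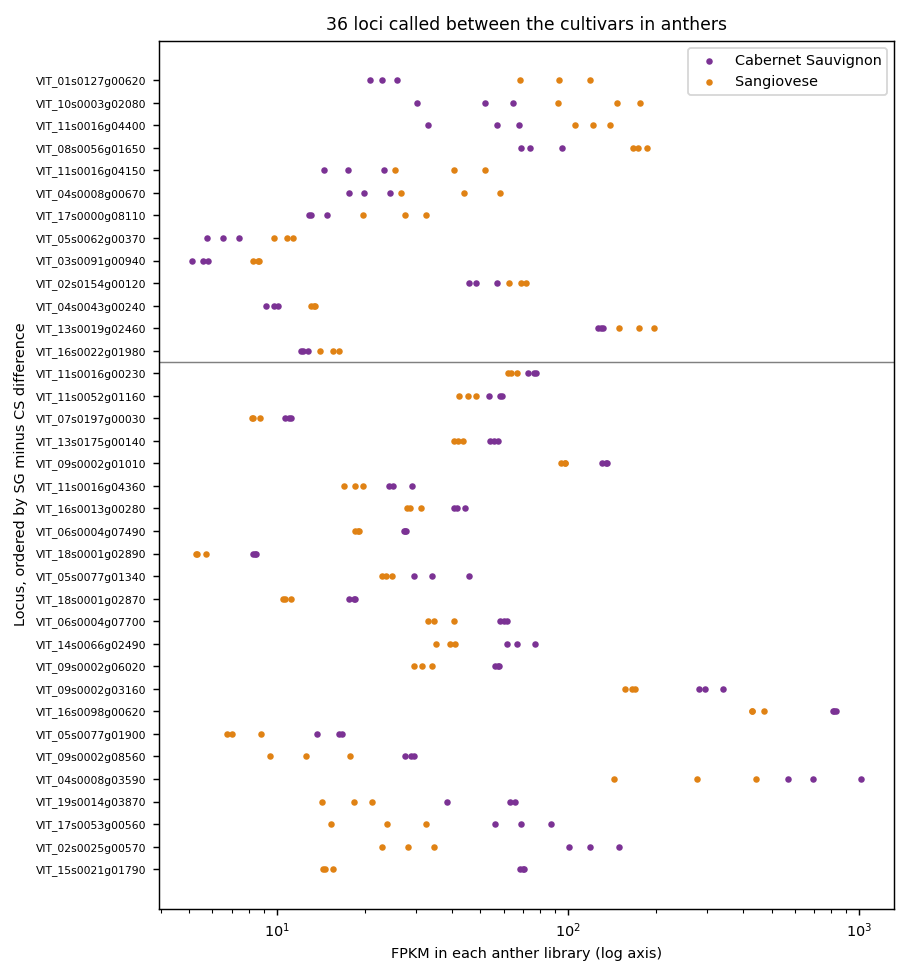
FPKM on a log axis in each of the 6 anther libraries for the 36 loci that passed the test between cultivars, CS in purple and SG in orange, ordered by the SG minus CS difference. Above the grey line are the 13 loci higher in SG and below it the 23 lower in SG, and in each row the colours do not overlap.

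Many of the 66 loci varied widely between libraries of the same cultivar. In CS anthers 7 of the 66 (10.6%) differed 2-fold or more between replicates 1 and 2, against 0.996% of the 11849 loci at 5 FPKM or more in all anthers. In SG anthers 13 of the 66 (19.7%) did, against 6.00%. Together they were 17 loci, 3 of them 2-fold or more apart in both cultivars. Of the 17, 11 did not pass between cultivars, 4 were higher and 2 lower in SG. The matching split over other loci 2-fold or more apart was not counted. A wide spread within a cultivar itself makes a call less likely, so nothing about the 66 is read from this split.

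VIT_11s0103g00200 had the widest range over the 6 anther libraries. It had 54.5, 13.7 and 29.5 FPKM in CS anthers and 38.3, 7.51 and 22 in SG anthers, so that replicate 1 was 3.99 times replicate 2 in CS and 5.09 times in SG. VIT_14s0030g01450 went the other way, with 5.73, 23.8 and 18.1 FPKM in CS and 11, 35.4 and 21.6 in SG. VIT_01s0011g06570 had 90.7, 39.5 and 56 FPKM in CS and 121, 37 and 78 in SG. Replicate 3 lay between the others in all 3 loci and in both cultivars.

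A group of loci was even in CS and uneven in SG. VIT_09s0018g00290 had 27.9, 25.4 and 25.6 FPKM in CS anthers and 10.8, 39 and 24.6 in SG anthers. VIT_15s0021g02710 had 31.3, 37.6 and 34.7 FPKM in CS and 12, 43.8 and 28.4 in SG. VIT_14s0066g02090 had 8.31, 7.15 and 7.35 FPKM in CS and 6.53, 22.7 and 13.3 in SG. In each of them SG replicate 1 was the lowest and SG replicate 2 the highest of the 6 libraries. The same order was seen in VIT_10s0071g00330, with 15.9, 14 and 15.4 FPKM in CS and 7.69, 24.9 and 14.1 in SG, and in VIT_18s0001g07330, with 9.84, 7.93 and 9.14 FPKM in CS and 5.15, 14.9 and 9.02 in SG. In SG 8 of the 66 were at least 2-fold higher in replicate 2 and 5 at least 2-fold higher in replicate 1, against 3.47% and 2.53% of the 11849 loci. In CS the numbers were 5 and 2, against 0.329% and 0.667%. Other loci went the opposite way, 2-fold or more apart in CS and less in SG. They were VIT_17s0000g05400, VIT_11s0016g04400 and VIT_10s0003g02080, given above, and VIT_14s0128g00420. The last had 8.03, 27.3 and 20.1 FPKM in CS and 19.4, 12.2 and 17.5 in SG. The loci of this paragraph and the one before were chosen after their values were seen.

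**Figure D5:**
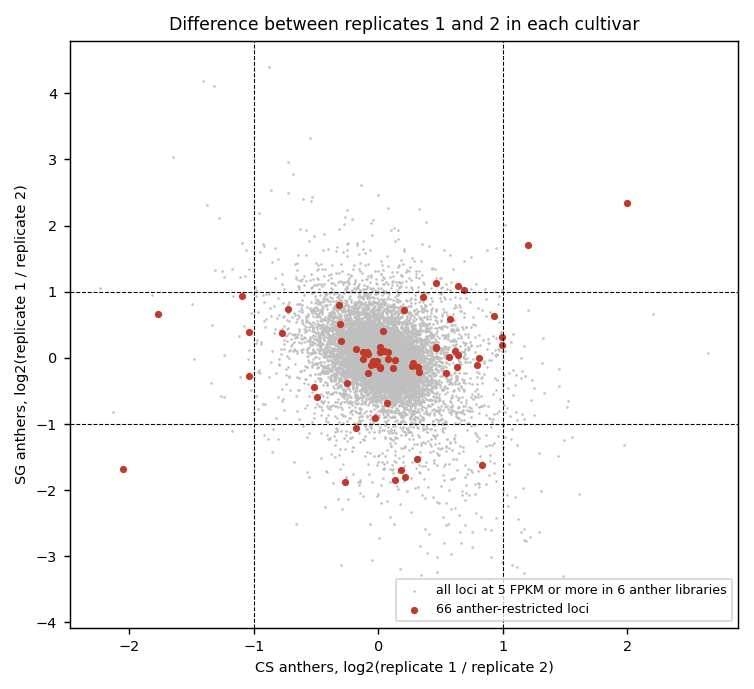
Log2 ratio of anther replicate 1 to replicate 2 in CS (horizontal) and SG (vertical), for the 66 loci in red and all 11849 loci at 5 FPKM or more in all anthers in grey, with dashed lines at 2-fold. Outside the lines lie 7 of the 66 in CS and 13 in SG.

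At the steady end, 14 of the 66 varied under 1.5-fold over all 6 anther libraries. VIT_14s0066g02520 was the steadiest, at 42.2, 41.9 and 42.6 FPKM in CS and 48.6, 43.4 and 45.6 in SG, a 1.16-fold range, and was picked after its values were seen. The median range over the 66 was 1.99-fold and the widest 7.26-fold. Ranges were not computed over other loci, so whether 14 of 66 is few or many cannot be said.

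Replicate 3 lay between replicates 1 and 2 for 52 of the 66 loci (78.8%) in CS anthers and for 48 (72.7%) in SG anthers. Over the 11849 loci the shares were 64.3% in CS and 72.8% in SG. In the callus groups, over loci at 5 FPKM or more in the group, the shares ran from 31.5% to 39.9% in 40D and NEC, and they were 67.2% in CS EC and 61% in SG EC. Among the 66, all 7 loci 2-fold apart in CS and all 13 in SG had replicate 3 in between. The matching share over all loci 2-fold apart was not counted, so this is not a trait of the 66.

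The place of replicate 3 is given here for the loci 2-fold or more apart between replicates 1 and 2. Counted from 0 at replicate 2 to 1 at replicate 1, replicate 3 lay at 0.314 to 0.388 for the 7 loci in CS, with a median of 0.333. For the 13 loci in SG it lay at 0.433 to 0.625, with a median of 0.547. Over all loci of this kind the median was 0.351 for 118 loci in CS and 0.561 for 711 in SG, with quartiles of 0.313 and 0.397 in CS and 0.515 and 0.599 in SG. The independence of replicate 3 from the other libraries, in anthers as in EC, was not tested. Each n = 3, SD, SE and adjusted p printed here takes the libraries as independent, and the errors and p-values would be too small if they were not.

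The identifiers of grapevine loci carry a linkage group number, a scaffold number and a gene number. The 66 loci were spread over 18 of the 19 linkage groups and 40 scaffolds, with 26 scaffolds holding 1 of them and none holding more than 5. Linkage groups 1, 4, 9, 11, 14 and 18 had 6 each, linkage groups 7, 8 and 19 had 1 each, and linkage group 12 had 0 of 1486 loci. Per 1000 loci the number ran up to 5.01 in linkage group 11 and 4.59 in linkage group 9. Of the 2628 loci numbered 00, which have no linkage group, 0 were among the 66.

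There was no run of 3 neighbouring members, but 5 pairs lay within 10 steps of each other in identifier order on a scaffold. These pairs were picked after their values were seen. VIT_18s0001g02870 and VIT_18s0001g02890 had 1 locus between them, which was at 0.06 FPKM on average in anthers and reached 3.43 in callus. Both members were lower in SG, with means of 18.2 and 10.8 FPKM in CS and SG for the first and 8.39 and 5.43 for the second.

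VIT_14s0066g02490 and VIT_14s0066g02520 had 2 loci between them. One of these, VIT_14s0066g02500, missed the rule only through its lowest anther library, as given above. The other, VIT_14s0066g02510, had a mean of 3.66 FPKM in anthers and a highest callus value of 0.942. All 4 loci were thus higher in anthers than in the median callus library. Between cultivars VIT_14s0066g02490 was lower in SG by 0.81 (log2, SE 0.10), and VIT_14s0066g02520, which did not pass, had a difference of 0.11 (SE 0.06). The difference between these loci was not tested.

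The remaining pairs were separated by loci of other patterns. VIT_11s0016g04360 and VIT_11s0016g04400 had 3 loci between them, of which VIT_11s0016g04390 had a mean of 131 FPKM in anthers and a median of 83.8 in callus. This pair went opposite ways, the first lower and the second higher in SG. VIT_04s0008g03540 and VIT_04s0008g03590, both among the 10 highest, had 4 loci between them with means of at most 5.76 FPKM in anthers. VIT_01s0011g06570 and VIT_01s0011g06650 had 7 loci between them, one of which, VIT_01s0011g06640, had a mean of 32 FPKM in anthers, a callus median of 0.217 and a highest callus value of 1.46.

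Loci next to the 66 in identifier order were like loci in general. Of 131 such neighbours outside the 66, 54 (41.2%) had 5 FPKM or more in all anther libraries, against 39.5% of all loci, and 27 (20.6%) were under 0.5 FPKM in all callus libraries, against 23.4%. These shares are descriptions over loci, which are not replicates.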

How the data were processed

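RNA was measured in 24 non-directional libraries. CASAVA 1.8.2, TopHat2 2.0.9 and Cufflinks 2.1.1 are named in the submitters' processing notes. The build and the annotation were not given in the sources used here. Because the authors deposited FPKM values (29971 loci, 1 column per library), no count model was used. Depth in reads is unknown.

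The 66 loci were found by the rule on the deposited FPKM. SG and CS anthers were compared for 17855 loci, all 66 included, that reached 1 FPKM in 3 or more of the 6 anther libraries. R 4.3.3 and limma 3.58.1 were used on log2(FPKM + 1), with a trend of spread with level and 4 residual degrees of freedom. Anthers were fitted alone, because the rule holds callus values under 0.5 FPKM and a pooled spread would have drawn on them. Fold changes on this scale understate those of low loci. P-values set the difference between cultivars against the spread between these libraries, taken as independent. Python 3.11.15 with pandas 2.3.3 made the counts. The fit was also run on simulated data with independent libraries, which cannot show how it behaves if replicate 3 is not independent. Strand was not recorded, and near-identical copies may share reads.

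Named loci are the 10 highest, up to 10 called each way with no overlap, those next to each threshold, runs of neighbours, and those at 0 in all callus. Others are said to be chosen after seeing values. Gene lists and markers written as words could not be applied. The members and lists were chosen with earlier results of these data known.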

Additional observations from a re-analysis of the deposited data

How the results depend on the processing

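The number of loci meeting the rule was 66. It was 101 at an anther minimum of 2 FPKM, 127 at a callus limit of 1 FPKM, 15 at a limit of 0.1, 1 with callus listed at 0, and 116 with the limits applied to group means. It was 46 at an anther minimum of 10 FPKM, 78 after median-of-ratios scaling and 71 after equal sums. Leaving out single libraries gave 66 to 71, and leaving out replicate 3 of both anther groups, an alternative added after the data were examined, gave 66.

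Between cultivars 36 of the 66 passed (13 higher and 23 lower in SG), and 6142 of all loci (2597 and 3545). With anther replicates 1 and 2 alone, also added after the data were examined, 1 of the 66 (0 and 1) and 166 of all loci (65 and 101) passed, while 26 of the 66 and 3368 of all loci had an unadjusted p under 0.05. With replicates 2 and 3 alone 32 of the 66 and 3825 of all loci (1649 and 2176) passed, and with replicates 1 and 3 alone 33 and 5477 (2536 and 2941). Leaving out single libraries gave 23 to 36 of the 66 (5 to 14 higher, 17 to 22 lower) and 2774 to 7703 of all loci (997 to 3367 higher, 1493 to 4336 lower). Requiring a log2 difference of at least 1 left 11 of the 66 (5 and 6) and 1587 of all loci (774 and 813). A fit of all 24 libraries called 22 of the 66 higher and 3988 of all loci higher.

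With the replicate number as a block 3821 of all loci passed (1603 and 2218) and 28 of the 66, 25 of them also called without it. The numbers share no source in the labels, and deviations of same-numbered libraries correlated at -0.29, -0.27 and -0.05. These correlations cannot settle whether the libraries were paired, which was not tested. Of 442 refits of 26 named loci, 0 reversed, 61 lost and 11 gained a call. Most of the 26 were named for a call with no overlap of the cultivars. Leaving out libraries cannot reverse such a locus, so the 0 is not read as stability. Median-of-ratios scaling moved the median difference of all loci by 0.03.

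Without the 10 highest loci the summed level was 1940 FPKM in CS and 1921 in SG. In SG it was 4248 after median-of-ratios scaling and 4266 after equal sums, against 4217. Leaving out single libraries gave 4992 to 5213 FPKM in CS and 4201 to 4226 in SG. What 1 fragment is worth limits values under about 0.1 FPKM, and the number of reads is unknown. The cause of each change was not tested.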
